A study of Homo sapiens with 12 samples.

Results

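The 10 genes examined here encode the core proteins that fuse and divide mitochondria in human cells. They were taken by symbol from the Huh7 table, in which 60666 genes were listed and 14394 were tested, and all 10 were tested. The outer-membrane mitofusins MFN1 and MFN2 and the inner-membrane GTPase OPA1 formed the fusion group of 3 genes. The fission group of 5 held the division dynamin DNM1L and its outer-membrane adaptors FIS1, MFF, MIEF1 and MIEF2. The remaining 2 genes, OMA1 and YME1L1, encode the inner-membrane proteases that cleave OPA1.

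Mitochondria form a network that is remodelled by opposing reactions. Mitofusins tether and merge the outer membranes, and OPA1 merges the inner membranes and holds the cristae. DNM1L, also called DRP1, is recruited from the cytosol to the outer membrane, where it assembles around the organelle and constricts it. YME1L1 cleaves OPA1 constitutively, whereas OMA1 is activated by stress and converts long OPA1 forms into short forms that no longer support fusion. The balance of these reactions sets the shape of mitochondria and their access to mitophagy, the removal of damaged mitochondria by autophagy.

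Huh7 is a human cell line from a hepatocellular carcinoma. Its transcriptome was sequenced in 3 control libraries and in 3 libraries of cells in which FAM111B, a serine protease gene, was knocked down (shFAM111B). Both groups carried stably integrated lentiviral constructs selected with puromycin, a control sequence or an shRNA, and no other treatment was given in the labels. The study asked how silencing of FAM111B changes mitochondrial metabolism, fusion and mitophagy. It reported more MFN2 protein and more mitochondrial fusion after knockdown, neither of which is measured by the RNA levels given here. Libraries of the Hep3B line, also in the series, were not analysed here. Whether the 3 libraries of a group came from separate cultures or clones was not stated, so the p-values measure the spread between these libraries only.

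The shRNA target listed for FAM111B is shown because it is the agent that separates the groups, in capitals where it is identical to FAM111B transcripts.

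shFAM111B target: CTGCCTAGTGATTCTCATT

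All 19 bases matched transcripts of 1 gene, FAM111B. Against the transcripts of the 10 fusion and fission genes, the longest identical run on the sense strand was 6 to 10 bases, and OMA1 held the run of 10. FAM111B itself measured 7.84, 8.29 and 7.99 TPM (a level corrected for transcript length and given as a share of the library's transcripts) in the controls and 0.96, 1.13 and 0.84 TPM in shFAM111B cells, so every library had the level its label calls for. Values are given here and further on in the order of replicates 1 to 3.

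The libraries differed in composition beyond these genes. Short non-coding RNA took 0.166% to 0.487% of the summed TPM in the controls but 4.77%, 7.06% and 0.514% in shFAM111B replicates 1 to 3, and transcripts of the mitochondrial chromosome took 19.7% to 20.2% in the controls and 7.37% to 8.06% in shFAM111B cells. The 8 liver markers were detected in all libraries and summed to 22182 to 22362 TPM in the controls and 37706 to 42644 TPM in shFAM111B cells. The markers did not move together, since AFP (7045 to 7411 against 21853 to 25038 TPM), APOA1, GPC3 and TTR were higher in every shFAM111B library than in every control, and ALB (6419 to 6492 against 3988 to 4356 TPM), APOB, SERPINA1 and HNF4A were lower in every one. The 8 markers of immune, endothelial and stromal cells summed to 18.4 to 22.1 and 25.9 to 27.6 TPM, most of it CD68 (15.0 to 23.4 TPM), while CD3E and VWF did not exceed 0.13 TPM. Because TPM are shares of a library, these shifts move the level of every gene, and their part in the results was not tested. In such bulk libraries, fewer cells with a transcript and less of it per cell cannot be told apart.

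The start regions of 4 genes are shown, those of the fusion genes MFN1 and OPA1, which fell alike, and those of the fission adaptors FIS1 and MFF, which rose. Each is the promoter window around a start that RefSeq gives the gene (GRCh38.p14), on the gene's own strand. Where a gene had several windows (3 for MFF and 2 for MIEF2), the one nearest the GENCODE gene start was taken. Capitals mark matches on either strand to the ETS core CCGGAAG, the CCAAT box or the GC box GGGCGG.

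MFN1 chr3:179347459-179347758, plus strand: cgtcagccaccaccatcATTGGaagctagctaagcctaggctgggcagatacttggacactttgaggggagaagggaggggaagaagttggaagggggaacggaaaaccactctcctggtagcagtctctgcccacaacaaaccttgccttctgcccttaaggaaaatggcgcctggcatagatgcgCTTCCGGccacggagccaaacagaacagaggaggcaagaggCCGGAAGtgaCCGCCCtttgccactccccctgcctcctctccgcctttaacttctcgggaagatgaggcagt
OPA1 chr3:193592958-193593257, plus strand: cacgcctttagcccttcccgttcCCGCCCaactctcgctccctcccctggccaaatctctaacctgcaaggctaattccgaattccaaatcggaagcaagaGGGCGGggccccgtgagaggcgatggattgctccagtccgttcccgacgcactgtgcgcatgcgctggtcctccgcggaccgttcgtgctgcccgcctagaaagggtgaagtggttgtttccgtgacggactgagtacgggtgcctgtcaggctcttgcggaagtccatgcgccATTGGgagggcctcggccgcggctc
FIS1 chr7:101245032-101245331, minus strand: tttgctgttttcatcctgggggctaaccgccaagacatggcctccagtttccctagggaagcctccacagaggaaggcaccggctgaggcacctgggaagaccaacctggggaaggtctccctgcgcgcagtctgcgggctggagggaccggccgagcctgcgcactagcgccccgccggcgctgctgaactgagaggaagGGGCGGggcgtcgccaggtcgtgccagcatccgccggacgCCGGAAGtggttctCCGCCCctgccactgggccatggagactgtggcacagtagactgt
MFF chr2:227325001-227325300, plus strand: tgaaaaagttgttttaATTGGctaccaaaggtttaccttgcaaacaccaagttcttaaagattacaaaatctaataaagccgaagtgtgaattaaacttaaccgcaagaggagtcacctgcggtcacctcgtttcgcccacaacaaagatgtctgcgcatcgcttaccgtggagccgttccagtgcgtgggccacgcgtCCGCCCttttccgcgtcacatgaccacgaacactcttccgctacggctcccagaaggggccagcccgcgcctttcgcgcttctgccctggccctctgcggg

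The RefSeq start of MFN1, OPA1 and MFF lay 17, 64 and 100 bases from the outermost start in the GENCODE annotation. That of FIS1 lay 7235 bases inside the GENCODE span of the gene, so its window covers an internal start. The table held windows for 9 of the 10 genes, all but YME1L1. The ETS core occurred in 3 of the 9 windows (MFN1, FIS1 and MIEF1) and in 10.3% of all 35116 windows, and thus in genes that fell as well as in 1 that rose. CCAAT boxes were in 6 windows against 34.6% of all windows and GC boxes in 8 against 45%, whereas the cyclic AMP element TGACGTCA was in 0 of 9 and in 1.85% of all. The MFN2 window held none of these letters. These matches describe the sequence and are not evidence of binding.

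Most of the fusion and fission genes had lower levels in shFAM111B cells, and 2 fission adaptors had higher levels. At an adjusted p under 0.05 (limma-trend on log2(TPM + 1), Benjamini-Hochberg adjustment over the 14394 genes), 7 of the 10 fell and 2 rose, while OMA1 did not pass. Of all tested genes, 50.9% fell and 21.1% rose under the same rule. At a change of at least 2-fold with P under 0.05, MFN1, OPA1, MIEF1 and YME1L1 were lower and FIS1 was higher, against 23.7% and 6.82% of all tested genes. The control and shFAM111B ranges did not overlap for the same 7 and 2 genes, as was so for 52.8% and 22.5% of all tested genes. The median log2 fold change was -0.95 over the 10 genes and -0.36 over all tested genes.

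**Figure D1:**
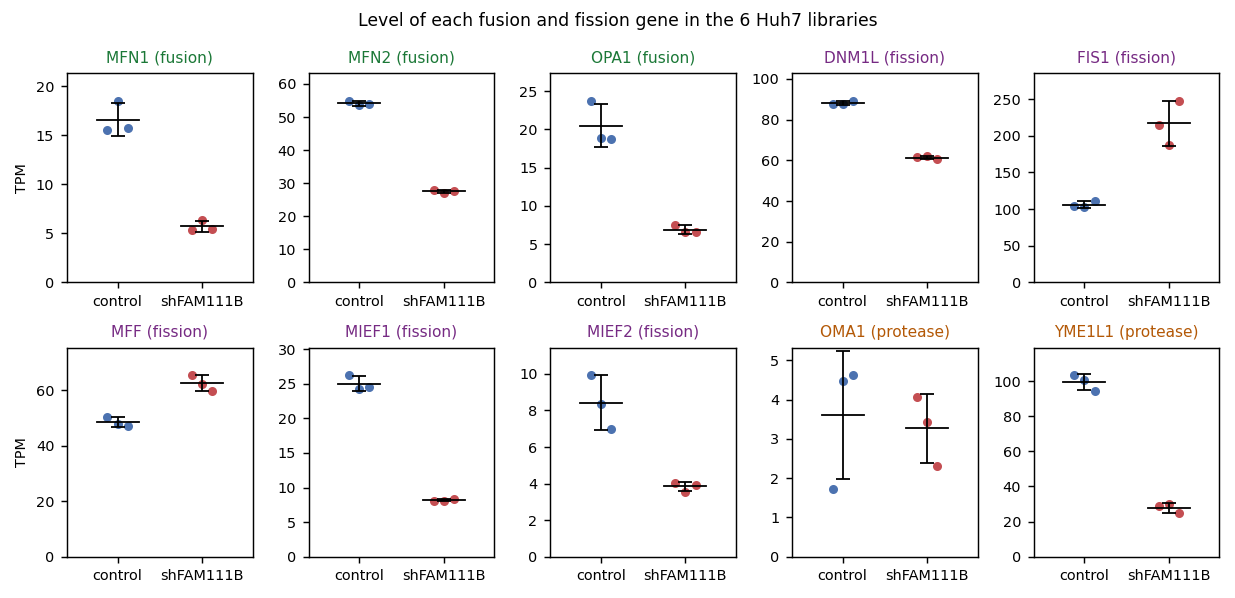
Level in TPM (vertical axis, from 0, its own scale in each panel) of each of the 10 genes in the 3 control libraries (blue) and the 3 shFAM111B libraries (red), with the mean and SD as lines. The groups are apart for 9 genes, with FIS1 and MFF higher in shFAM111B cells, and overlap for OMA1.

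All 3 fusion genes fell. MFN2 (ENSG00000116688, chr1:11980181-12013514), the mitofusin that also tethers mitochondria to the endoplasmic reticulum, measured 55.0, 53.6 and 54.0 TPM in the controls, and 27.8, 27.1 and 27.6 TPM after knockdown. The 3 libraries of each group were close together, and the groups were far apart. The mean went from 54.2 ± 0.713 to 27.5 ± 0.359 TPM (SD, n = 3 each), a log2 fold change of -0.95 (SE 0.050, limma adjusted p = 6.338e-06). MFN2 was the most abundant fusion transcript in both groups.

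MFN1 (ENSG00000171109, chr3:179347692-179394931), the mitofusin with the stronger tethering activity, was at 15.5, 18.5 and 15.7 TPM in the controls and at 5.36, 6.37 and 5.41 TPM in shFAM111B cells. Every shFAM111B library was below every control, and the mean fell from 16.6 ± 1.70 to 5.71 ± 0.569 TPM (SD, n = 3 each; log2 fold change -1.39, SE 0.109, limma adjusted p = 3.02e-05). OPA1 (ENSG00000198836, chr3:193593144-193697823), mutated in dominant optic atrophy, had 23.8, 18.9 and 18.8 TPM in the controls and 7.54, 6.62 and 6.54 TPM in shFAM111B cells. Control replicate 1 was the highest of the 6 libraries, and the remaining controls were still well above all shFAM111B libraries. Its log2 fold change was -1.44 (SE 0.115, limma adjusted p = 3.363e-05), close to that of MFN1.

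Among the fission genes, 3 fell and 2 rose. DNM1L (ENSG00000087470, chr12:32679200-32745650), the GTPase that divides mitochondria and peroxisomes, was at 87.5, 87.5 and 89.4 TPM in the controls and 61.5, 61.9 and 60.6 TPM in shFAM111B cells. The groups were narrow and apart, and the fall of 0.52 on the log2 scale (SE 0.043, limma adjusted p = 4.174e-05) was the smallest among the 7 genes that fell. It lay 0.15 below the change of the median tested gene, and its direction depended on the scaling of the libraries, as given further on.

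FIS1 (ENSG00000214253, chr7:101239458-101252316), a tail-anchored outer-membrane adaptor, was at 104, 103 and 111 TPM in the controls and at 215, 188 and 248 TPM in shFAM111B cells. It had the largest rise of the 10 genes. Its shFAM111B libraries were uneven, yet its lowest shFAM111B value was far above the highest control. The mean was 106 ± 4.51 TPM in the controls and 217 ± 30.2 TPM in shFAM111B cells (SD, n = 3 each), with a log2 fold change of 1.02 (SE 0.10, limma adjusted p = 8.593e-05). MFF (ENSG00000168958, chr2:227325151-227357836), the main receptor that recruits DNM1L, was at 50.6, 47.9 and 47.1 TPM and at 65.6, 62.4 and 59.9 TPM. Its groups did not overlap, and its rise of 0.36 (SE 0.058, limma adjusted p = 0.001046) on the log2 scale was the smallest change among the 9 genes that passed.

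The paired adaptors MIEF1 and MIEF2, also called MiD51 and MiD49, both fell. MIEF1 (ENSG00000100335, chr22:39499432-39518132) was at 26.3, 24.3 and 24.5 TPM in the controls and at 8.08, 8.07 and 8.32 TPM in shFAM111B cells, where the 3 libraries were nearly equal. Its log2 fold change was -1.51 (SE 0.071, limma adjusted p = 4.552e-06), the largest fall of the fission genes. MIEF2 (ENSG00000177427, chr17:18260534-18266552) was low throughout, at 9.95, 8.38 and 6.97 TPM in the controls and 4.06, 3.55 and 3.92 TPM in shFAM111B cells. Its controls were spread, but the lowest of them was still above all shFAM111B libraries (log2 fold change -0.95, SE 0.138, limma adjusted p = 0.0006358). Fission adaptors thus moved in both directions within the same libraries.

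The 2 OPA1-cleaving proteases differed in level and in result. YME1L1 (ENSG00000136758, chr10:27110112-27155266), the ATP-dependent protease of the inner membrane, was at 104, 100.4 and 94.3 TPM in the controls and at 28.7, 30.0 and 24.7 TPM in shFAM111B cells. No other gene of the 10 fell as far. The mean went from 99.4 ± 4.67 to 27.8 ± 2.76 TPM (SD, n = 3 each), 3.58-fold lower, with a log2 fold change of -1.81 (SE 0.082, limma adjusted p = 4.25e-06). OMA1 (ENSG00000162600, chr1:58415384-58546802), the stress-activated protease, was at 1.72, 4.47 and 4.63 TPM in the controls and at 4.06, 3.42 and 2.32 TPM in shFAM111B cells. Control replicate 1 was the lowest of all 6 libraries and the groups overlapped. Its log2 fold change of -0.06 had a 95% interval of -0.80 to 0.68 (limma adjusted p = 0.8782), so neither a fall nor a rise within that interval was excluded.

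Annotated neighbours shared exonic sequence with some of these genes, and whether the reads were counted by strand was not stated. OMA1 shared 257 of its 3718 exonic bases with DAB1 on the same strand, and DAB1 was at 6.72 to 8.44 TPM in the controls and 8.08 to 16.5 TPM in shFAM111B cells, which makes the low values of OMA1 uncertain. YME1L1 shared 443 of 7335 exonic bases with MASTL on the opposite strand, and MASTL was at 17.7 to 18.8 TPM in the controls and 7.31 to 8.66 TPM in shFAM111B cells, lower in the same libraries as YME1L1. The part of shared reads in these values was not tested. MIEF1 shared 213 of 7555 bases with a small gene inside it that was listed at 0 in 5 of the 6 libraries. The antisense gene of OPA1 was listed at 0 in all libraries. YME1L1 also has an annotated pseudogene on chromosome 22, and how reads were divided between them was not stated.

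The order of the levels changed between the groups. In the controls, FIS1 was followed by YME1L1, DNM1L, MFN2, MFF, MIEF1, OPA1, MFN1, MIEF2 and OMA1, and only the ranges of FIS1 and YME1L1 overlapped among neighbours. In shFAM111B cells the order was FIS1, MFF, DNM1L, YME1L1, MFN2, MIEF1, OPA1, MFN1, MIEF2 and OMA1, with overlapping ranges between MFF and DNM1L, between YME1L1 and MFN2, and between MIEF2 and OMA1. YME1L1 thus went from a level near that of FIS1 to a level near that of MFN2. MFF went from below MFN2 to above it.

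Summed over genes, fusion transcripts were at 91.3 ± 2.88 TPM in the controls and 40.1 ± 0.605 TPM in shFAM111B cells, and fission transcripts at 276 ± 4.53 and 353 ± 28.6 TPM (SD, n = 3 each). The summed fusion level per summed fission level was 0.339, 0.336 and 0.317 in the control libraries and 0.115, 0.124 and 0.104 in the shFAM111B libraries. The higher fission sum rested on FIS1, whose mean went from 106 to 217 TPM. MFF rose less, and DNM1L, MIEF1 and MIEF2 were lower. Without FIS1 the quotient was still 0.527 to 0.542 in the controls and 0.293 to 0.298 in shFAM111B cells. These sums weight abundant transcripts most and say nothing of protein. The fusion genes, DNM1L and MIEF1 were of a length class, described below, with a median log2 fold change of -0.85. The median was -0.40 for the class of MFF and MIEF2 and 0.64 for that of FIS1. The part of length in the sums was not tested.

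Ratios of 2 genes within a library do not depend on a factor applied to the whole library, and 6 of them were compared with an exact two-sided permutation test. With 3 libraries a group the smallest p this test can give is 0.1, which all 6 reached (0.1 also after adjustment over the 6 ratios), so none could pass a threshold of 0.05. In none of the ratios did the groups overlap, but how often ratios of other tested genes kept them apart was not computed. Taken singly, 52.8% of all tested genes were lower and 22.5% higher without overlap of the groups. The ratio of MFN2 to MFN1 was 3.55, 2.89 and 3.44 in the controls and 5.19, 4.26 and 5.10 in shFAM111B cells, a difference of 0.56 ± 0.129 on the log2 scale (SE). MFN2 thus made up relatively more of the mitofusin transcripts, although the transcripts of both genes fell. The OPA1 to MFN2 ratio was 0.432, 0.352 and 0.348 against 0.271, 0.244 and 0.237, which was 1.5-fold lower. DNM1L per MFN2 was 1.59, 1.63 and 1.66 against 2.21, 2.28 and 2.20, the tightest of the 6 differences (0.46 ± 0.024 on the log2 scale, SE).

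Within the fission adaptors, MFF per FIS1 was 0.486, 0.467 and 0.424 in the controls and 0.305, 0.332 and 0.241 in shFAM111B cells, 1.58-fold lower although both genes rose. MIEF2 per MIEF1 was 0.378, 0.345 and 0.285 against 0.503, 0.440 and 0.471, that is 1.41-fold higher although both fell. The OMA1 to YME1L1 ratio rose most in size, from 0.0166, 0.0445 and 0.0491 to 0.142, 0.114 and 0.0939, a log2 difference of 1.79 ± 0.528 (SE). It rested partly on the low OMA1 value of control replicate 1, without which the log2 difference was 1.30. A shift that varies with transcript length does not cancel in a ratio. The length classes described below had median log2 fold changes of 0.64 for FIS1, and -0.40 for MFF, MIEF2 and OMA1. The median was -0.85 for the class that held MIEF1, YME1L1, MFN1, MFN2, OPA1 and DNM1L. The part of length in the ratios was not tested.

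**Figure D2:**
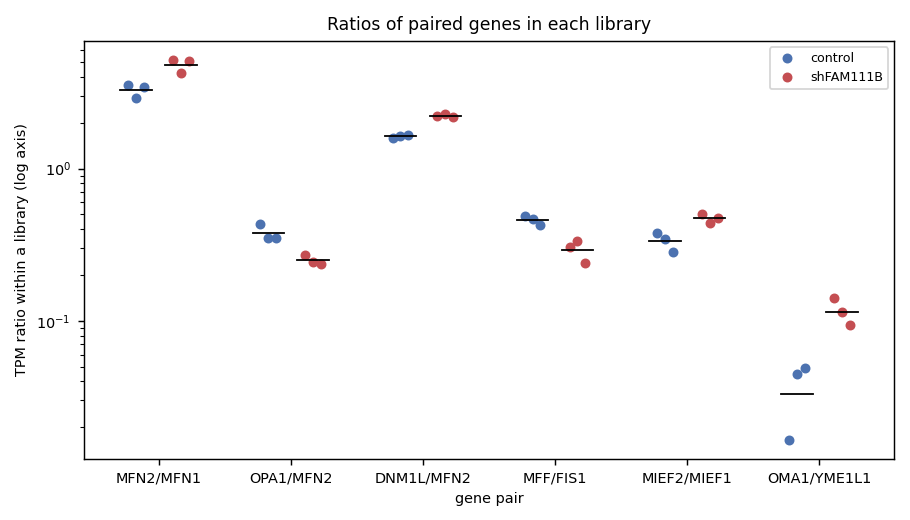
TPM ratio of 2 genes within each library (vertical axis, logarithmic) for 6 gene pairs in control (blue) and shFAM111B (red) libraries, with the geometric mean as a line. The groups are apart in every pair, and the OMA1 to YME1L1 ratio has the widest spread among controls.

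Transcript length moved with the direction of change over all genes, and the fusion and fission genes were uneven in length. Length was taken as that of the longest protein-coding transcript in GENCODE v29, which need not be the isoform expressed. Of 523 tested protein-coding genes of up to 1000 nt, 67.5% rose, and of 3682 genes between 4000 and 8000 nt, 74.4% fell. FIS1, at 915 nt, was the shortest of the 10, and its log2 fold change of 1.02 was above that of 74.2% of its length class, whose median was 0.64. MFF, at 2186 nt, stood higher in its class, above 85.1% of 4603 genes with a median of -0.40.

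In contrast, 6 of the 7 genes that fell were between 4000 and 8000 nt, a class whose median was -0.85 on the log2 scale. YME1L1 (4127 nt) was above only 8.5% of that class, MIEF1 (5625 nt) above 17.8%, OPA1 (6493 nt) above 20.7% and MFN1 (5224 nt) above 22.5%. MFN2 (4539 nt) was near the middle of the class, above 44.3% of it, and DNM1L (4439 nt) had a smaller fall than most, above 66.9%. MIEF2 (3364 nt) and OMA1 (2105 nt), in the class of MFF, were above 23.1% and 68.6%. The part of transcript length in the results was not tested.

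The scaling of the libraries set how many of all genes rose or fell, so the changes were recomputed under 5 other scalings. With the TPM as deposited, 29.4% of all called genes were higher, against 50.4% after median-of-ratios scaling, 48.5% after upper-quartile scaling, 46.9% after quantile normalization, 58.7% after subtraction of each library's median and 24.8% after rescaling to protein-coding genes off the mitochondrial chromosome. The median of all tested genes was -0.36 as deposited and ranged from -0.49 to 0.17 under the other scalings. FIS1 (0.89 to 1.55) and MFF (0.24 to 0.89) were higher under all 5 scalings, and MFN1 (-1.53 to -0.85), MFN2 (-1.08 to -0.42), OPA1 (-1.58 to -0.91), MIEF1 (-1.65 to -0.97), MIEF2 (-1.09 to -0.42) and YME1L1 (-1.94 to -1.27) were lower under all 5, each at an adjusted p under 0.05 in limma.

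DNM1L was the gene whose fall rested on the scaling. Its log2 fold change was -0.07 after median-of-ratios scaling (limma adjusted p = 0.216), -0.11 after upper-quartile scaling (limma adjusted p = 0.07652) and 0.02 after subtraction of the median (limma adjusted p = 0.7363), while it stayed lower after quantile normalization (-0.37) and protein-coding rescaling (-0.64). OMA1 passed under none of them and its sign varied, from -0.16 to 0.475. Relative to the median tested gene, MFN2 changed by -0.59, MFN1 by -1.03, OPA1 by -1.08 and YME1L1 by -1.44, whereas FIS1 changed by 1.38 and MFF by 0.72.

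**Figure D3:**
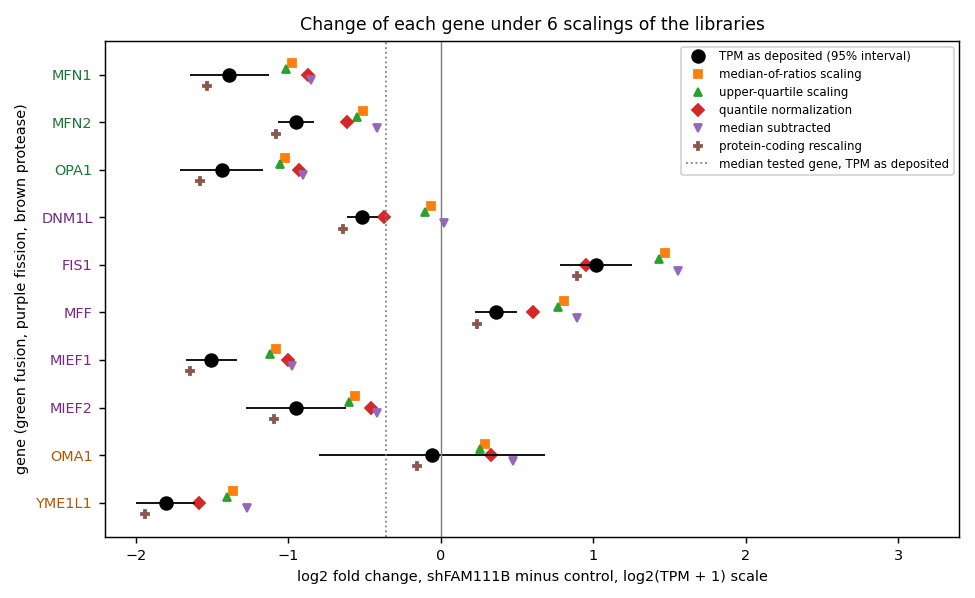
Log2 fold change of the 10 genes on the log2(TPM + 1) scale, shFAM111B minus control (horizontal axis), with the TPM as deposited (black, 95% interval) and under 5 other scalings of the libraries (coloured symbols), and the median tested gene at -0.36 (dotted line). FIS1 and MFF stay right of 0 and MFN1, MFN2, OPA1, MIEF1, MIEF2 and YME1L1 left of it under all scalings, while DNM1L and OMA1 reach 0 or cross it.

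Further genes that act on mitochondrial shape were taken from 6 lists, which held 39 genes of which 38 were tested. Of these, 24 fell and 8 rose at an adjusted p under 0.05 (limma), and the median change was -0.44 on the log2 scale, against 50.9% and 21.1% of all tested genes and a median of -0.36. After median-of-ratios scaling 14 of the 38 fell and 14 rose, where 35.2% and 35.8% of all genes did, and over the 5 scalings the counts ran from 12 to 24 lower and from 8 to 16 higher. These all-gene shares, which take no account of transcript length, are the reference for the counts of each list. Of 7 further fusion factors, 5 fell and 1 rose (median -0.81), and 4 or 5 fell and 1 or 2 rose under the other scalings. The largest fall was that of MIGA1, a mitoguardin that promotes fusion, which went from 8.56 to 1.43 TPM (log2 fold change -1.99, SE 0.151), and the rise was that of STOML2, an inner-membrane scaffold of the prohibitin superfamily, from 154 to 215 TPM (0.47, SE 0.055).

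Of 8 further fission factors, 6 fell and 1 rose (median -0.57). GDAP1, an outer-membrane protein mutated in Charcot-Marie-Tooth disease, fell most, from 3.37 to 0.643 TPM (-1.41, SE 0.140), and INF2, a formin that assembles actin at division sites, rose from 31.9 to 40.9 TPM (0.35, SE 0.088). Under the 4 scalings that brought the median of all genes nearer 0 or above it, 3 or 4 of the 8 fell and 2 rose, where 29.4% to 36.8% of all genes fell and 32.5% to 41.6% rose. All 5 listed enzymes that attach or remove ubiquitin or SUMO (MARCHF5, MUL1, USP30, HUWE1 and SENP5) fell as deposited. The largest fall was that of MARCHF5, a ligase that acts on mitofusins and DNM1L, from 21.2 to 7.96 TPM (-1.31, SE 0.123). Under those 4 scalings 2 to 4 of the 5 fell.

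The 8 proteases and prohibitins of the inner membrane and intermembrane space had 4 higher and 4 lower as deposited (median 0.06). Under median-of-ratios, upper-quartile and median-subtracted scaling 1 was lower and 4 or 5 were higher, with list medians of 0.48 to 0.60, and after quantile normalization 3 were lower and 4 higher. AFG3L2, a subunit of the matrix-facing AAA protease, fell from 90.3 to 36.6 TPM (-1.28, SE 0.057), as YME1L1 did. IMMP1L, a signal peptidase subunit, had the largest rise but was uneven, with 41.8, 53.5 and 114 TPM in shFAM111B cells against a control mean of 24.0 ± 4.58 TPM (SD, n = 3; 1.39, SE 0.354).

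The MICOS complex, which shapes crista junctions, had 2 higher, 1 lower and 3 genes that did not pass among the 6 tested (median 0.38), and APOOL was listed at 0 in all libraries. MICOS10 rose from 62.3 to 218 TPM (1.79, SE 0.117), the largest rise among the 38 tested genes. IMMT, the core subunit also called mitofilin, fell from 91.3 to 71.7 TPM as deposited (-0.34, SE 0.042), but its change ranged from -0.47 to 0.19 under the other scalings. Under 4 of these scalings 5 or 6 of the 6 MICOS genes were higher, where 32.5% to 41.6% of all tested genes were. MICOS13 (896 nt), CHCHD6 and APOO (1159 nt each) and CHCHD3 (1598 nt) were short, whereas IMMT (3001 nt) and MICOS10 (3712 nt) were longer. As deposited, 67.5% of tested protein-coding genes of up to 1000 nt rose. The share was 41.5% from 1000 to 2000 nt and 16.3% from 2000 to 4000 nt. The part of transcript length in these counts was not tested. Among 4 genes for transport along microtubules, 3 fell and 0 rose as deposited, and 2 or 3 fell and 0 or 1 rose under the other scalings. TRAK2, an adaptor for motor proteins, had the largest fall, from 12.1 to 3.90 TPM (-1.42, SE 0.101).

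With shFAM111B replicates 1 and 2, which held more short non-coding RNA, left out, 2 of the 10 fusion and fission genes were still higher and 7 lower at an adjusted p under 0.05 in limma, with the remaining shFAM111B library assumed to vary like the controls.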

How the data were processed

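RNA sequencing of 3 Huh7 control and 3 Huh7 shFAM111B libraries was read from 1 table. The authors deposited TPM for each library, and their processing notes name RSEM, DESeq2 and hg38 without versions. The deposited columns of the authors' own comparison (the fold change as a ratio and as log2, with raw and adjusted p-values) and the group means were not used. The labels describe a stranded poly(A) kit. The depth behind each TPM is unknown, and no counting interval was given.

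Genes that reached 1 TPM in 3 or more libraries were tested on log2(TPM + 1) with limma 3.58.1 (lmFit, eBayes with trend) in R 4.3.3, without covariates, with Benjamini-Hochberg adjustment over all tested genes. Fold changes on this scale understate those of low genes. Calls needed an adjusted p under 0.05, and calls at 2-fold with P under 0.05 were counted as well. Ratios and motif matches were computed in Python 3.11.15 (numpy 2.4.6, pandas 2.3.3, scipy 1.17.1, matplotlib 3.10.9). Positions and lengths came from GENCODE v29 (GRCh38) and promoter windows from RefSeq (GRCh38.p14). The fit was tested on simulated data.

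The 10 genes and the wider lists were chosen with earlier results of these data known. Of each wider list, the called genes with the largest rise and the largest fall were named. Alternatives were a pseudocount of 0.1, no filter, 5 other scalings, the replicate number as a block and leaving out each library. Leaving out shFAM111B replicates 1 and 2 was added after seeing the data.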

Additional observations from a re-analysis of the deposited data

How the results depend on the processing

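The counts of genes called higher (2) and lower (7) stayed within 1.5 times under all alternatives run, the lower count being 6 under 3 of the scalings. The count past 2-fold was 5, and 2 after quantile normalization and after subtraction of the median. With each library left out in turn, 2 genes were called higher, 7 lower and 4 to 6 past 2-fold. The log2 fold change of DNM1L was 0.018 after subtraction of the median. That of OMA1, -0.058 as deposited, was 0.475 after subtraction of the median, 0.287 after median-of-ratios scaling, 0.332 after quantile normalization, 0.257 after upper-quartile scaling, and between -0.401 and 0.124 with each library left out (0.103 without control replicate 2, 0.124 without control replicate 3, 0.112 without shFAM111B replicate 3), and it passed the threshold under none of these. The causes were not tested.

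Without each library in turn the log2 ratio differences ranged from 0.467 to 0.649 for MFN2/MFN1, -0.643 to -0.485 for OPA1/MFN2, 0.438 to 0.469 for DNM1L/MFN2, -0.755 to -0.525 for MFF/FIS1, 0.382 to 0.587 for MIEF2/MIEF1 and 1.297 to 2.078 for OMA1/YME1L1. Deviations from the group means correlated at 0.054, 0.035 and 0.091 between libraries of the same replicate number, so the numbers were not taken to pair samples. With the replicate block, 2 genes were called higher, 7 lower and 5 past 2-fold, and the exact sign-flip p of every ratio was 0.25, the smallest that 3 pairs allow. With shFAM111B replicates 1 and 2 left out, an alternative chosen after seeing the data, the counts were 2, 7 and 5. Unknown depth limits the precision of low genes such as OMA1 and MIEF2.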
